A study of Mus musculus with 25 samples.

Results

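Genes for type 2 and regulatory cytokines were followed in mouse liver during concanavalin A hepatitis: Il4, Il5, Il13, Il10 and Il33, together with Il1rl1, which encodes the IL-33 receptor ST2, and Gata3, the transcription factor of type 2 lymphocytes. The 7 genes were taken by name, through the RefSeq accession of each array probe. The list was chosen with earlier results of these data known. Counts of members beside the share of all genes are therefore descriptions, not independent evidence. Of the 7, 6 passed the filter on dim probes and were tested among 15104 genes, and Il5 did not. Whole-liver RNA from 25 female mice of the strain C57BL/6NcrSlc was hybridised to 1-colour Agilent arrays, 1 mouse per array and 5 mice in each of 5 groups. One group was unstimulated. The other groups were given concanavalin A (ConA) at 10 mg/kg, a lectin of jack beans that stimulates T cells and NKT cells and so causes an immune hepatitis. After 15 min these mice were given either vehicle or 1 mg/kg BW245C, an agonist of the prostaglandin D2 receptor DP1, by intraperitoneal injection, and livers were taken at 3 hr or at 24 hr. BW245C without ConA was not analysed here, and the ages of the mice are not given in the sources used here.

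IL-4 and IL-13 are the signature cytokines of type 2 T cells, NKT cells, type 2 innate lymphoid cells, basophils and mast cells, and signal through receptors that share the IL-4 receptor alpha chain and activate STAT6. IL-5 supports eosinophils. IL-10 restrains inflammatory macrophages and T cells through STAT3. IL-33 is held in the nuclei of barrier, endothelial and stellate cells, is released on damage and acts on cells that carry ST2. GATA3 drives transcription of the type 2 cytokine locus. In ConA hepatitis, IL-4 is an early product of liver NKT cells.

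Il4, Il13 and Il5 are neighbours on mouse chromosome 11, where the order of protein-coding genes in RefSeq's table is Kif3a, Il4, Il13, Rad50, Il5 and Irf1. The other members lie on chromosome 1 (Il10 and Il1rl1), chromosome 2 (Gata3) and chromosome 19 (Il33). RefSeq promoter sequences of build GRCm38.p6 matched 6 of the 7 members. The 250 bases before the start sites of Il4 (its most upstream start) and Il13 are shown because these neighbouring genes moved together in the results that follow. Both genes are on the minus strand and the sequences read 5′ to 3′. Capitals mark GGAAA, the core bound by NFAT, together with GATAA, the core bound by GATA factors, and TGACG, a cAMP response element half-site, each on either strand.

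Il4 promoter, chr11:53618666-53618915: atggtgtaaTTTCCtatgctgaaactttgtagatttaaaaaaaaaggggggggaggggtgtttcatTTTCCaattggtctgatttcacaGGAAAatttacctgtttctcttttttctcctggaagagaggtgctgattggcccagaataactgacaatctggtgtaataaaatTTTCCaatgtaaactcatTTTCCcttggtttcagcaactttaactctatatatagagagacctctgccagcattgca

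Il13 promoter, chr11:53634703-53634952: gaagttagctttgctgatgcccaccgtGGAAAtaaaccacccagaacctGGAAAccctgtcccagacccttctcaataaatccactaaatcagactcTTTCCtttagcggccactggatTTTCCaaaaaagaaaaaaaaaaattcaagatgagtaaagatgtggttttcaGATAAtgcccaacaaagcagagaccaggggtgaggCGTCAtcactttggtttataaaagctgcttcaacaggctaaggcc

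GGAAA occurred 5 times in this Il4 window and 4 times in the Il13 window. The window of the other Il4 start held 0 matches of the 3 motifs. It was present in 55.6% of 32851 promoter windows of this length. The Il13 window also held 1 GATAA, present in 22.6% of windows, and 1 TGACG, present in 17.8%, and no 2 of the matches overlapped. These are matches of letters, not measured sites.

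Levels are given as the normalised signal of a probe in percent of the 75th percentile of its own array, and a probe counted as above background on an array where at least 0.5 of its spots were flagged so by the scanner software. Levels of different probes cannot be set against each other. From 52.2% to 61.6% of spots were above background per array, and 10 of 10 hepatocyte marker genes were measured. Ptgdr, the gene of DP1, was above background on 0 of 25 arrays, as was Ptgdr2, the gene of the other prostaglandin D2 receptor. The arrays lay on 5 slides that overlapped only in part with the groups: slide 3 held the 5 BW245C arrays of 3 hr and 2 vehicle arrays of 3 hr, and slide 4 held 4 vehicle and 3 BW245C arrays of 24 hr. For this reason the agonist's effects are also given from a fit with a slide term and from within these slides. Since whole liver was profiled, a change in a lymphocyte gene cannot be told apart from a change in the number of cells that carry it.

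**Figure D1:**
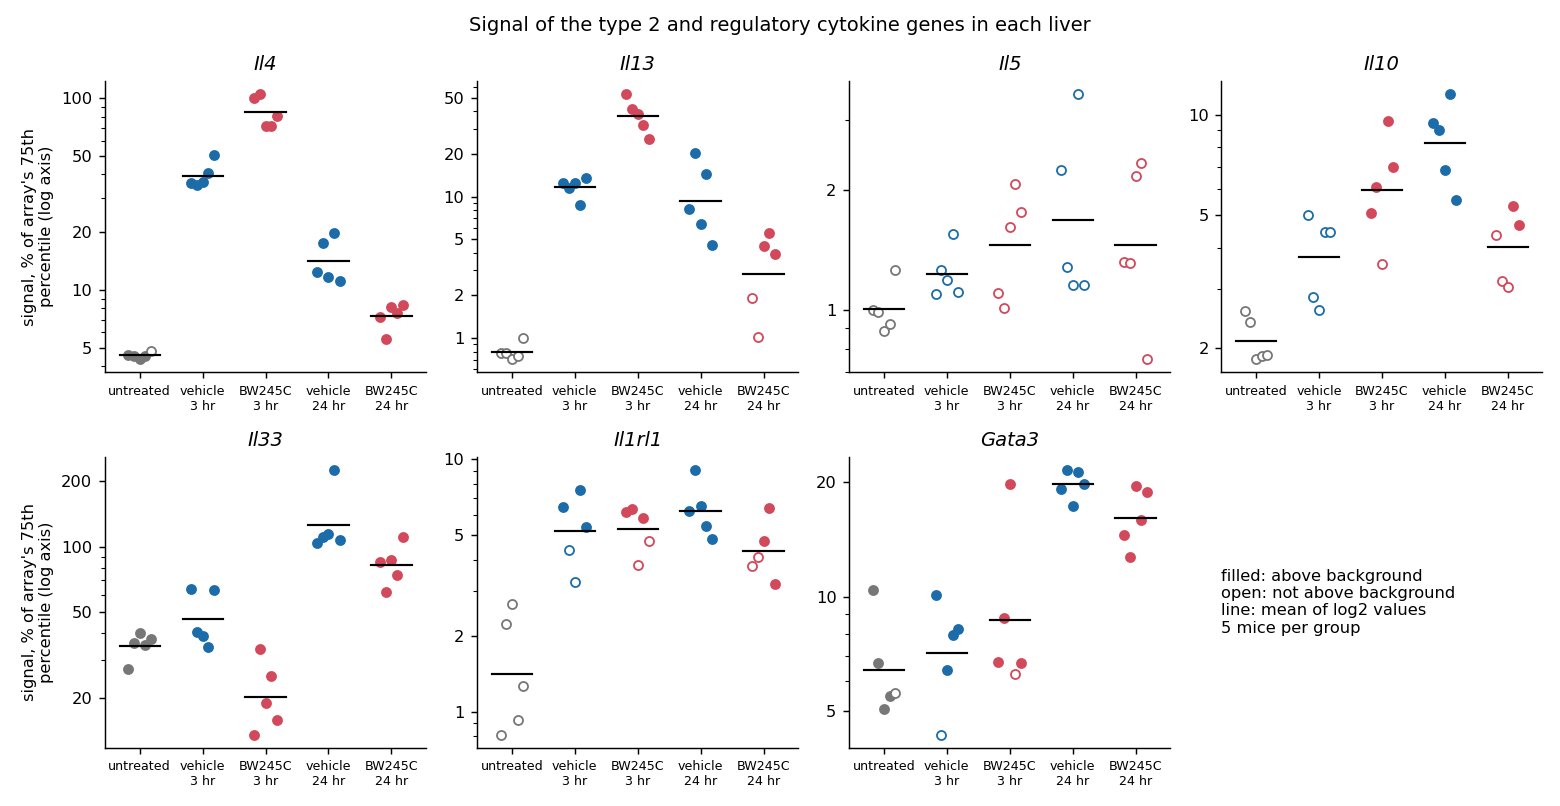
Signal of each member in each of 25 livers, as percent of the array's 75th percentile on a log axis, by group. Filled points were above background, open points were not, and lines are means of the log2 values over 5 mice. Il4 and Il13 were highest with BW245C at 3 hr, and Il5 was below background throughout.

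Il4 was higher with BW245C at 3 hr and lower with it at 24 hr. In the vehicle livers at 3 hr its signal was 36.1, 35.1, 36.4, 40.7 and 50.4%, and in the BW245C livers 100.5, 105, 71.5, 71.8 and 80.7%. Every BW245C liver lay above every vehicle liver. At 24 hr the vehicle livers read 12.3, 17.6, 11.7, 19.7 and 11.2%, and the BW245C livers 7.18, 5.53, 8.17, 7.55 and 8.33%. The order was turned, again with no overlap, and all 20 livers given ConA exceeded the untreated range of 4.37 to 4.77%. The change with BW245C was 2.15-fold upward at 3 hr (log2 1.10 ± 0.15 SE, adjusted p = 2.74e-05) and 1.94-fold downward at 24 hr (log2 -0.96 ± 0.15, adjusted p = 0.000116). With the slide as a block the log2 changes were 1.03 and -0.98, and within slide 3 and slide 4 they were 0.90 and -1.13. The probe was printed 10 times on each array, and the SD among its spots in the vehicle arrays of 3 hr was 0.08 to 0.12 on the log2 scale, against 0.22 between those mice. The difference between the changes at 24 hr and 3 hr was log2 -2.06 ± 0.22 (adjusted p = 5.52e-06). With another background correction (normexp), whose offset of 50 compresses changes of dim probes by construction, the drop at 24 hr was smaller, at log2 -0.30, and the difference between the times was -1.08, both still past the threshold.

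Il13 showed the same turn. At 3 hr the vehicle livers read 12.5, 11.5, 12.4, 8.67 and 13.5%, and the BW245C livers 52.9, 41.6, 38.4, 32.3 and 25.5%. The groups were fully separated. At 24 hr the vehicle livers spread from 4.56% over 6.37, 8.22 and 14.4 to 20.4%, and the BW245C livers read 1.91, 1.01, 4.50229, 5.50 and 3.91%, of which 3 were above background. Here 1 BW245C liver lay above the lowest vehicle liver, so the groups overlapped. The change with BW245C was 3.19-fold upward at 3 hr (log2 1.67 ± 0.38, adjusted p = 0.00278) and 3.27-fold downward at 24 hr (log2 -1.71 ± 0.38, adjusted p = 0.00202). A slide block gave 1.93 and -1.94, and within slide 3 and slide 4 it was 1.77 and -2.13. The difference between the times, log2 -3.38 ± 0.54 (adjusted p = 0.000238), was the 6th lowest of 15104 genes. Normexp gave smaller values with the same calls, namely log2 0.86 at 3 hr, -0.38 at 24 hr and -1.24 for the difference between the times.

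Across the 25 arrays the levels of Il4 and Il13 had a Pearson r of 0.931, and of 0.738 when each value was taken from its group's mean, as a description over arrays that share the ConA and BW245C treatments. The genes that flank the cytokine locus were not called higher at 3 hr. Kif3a, a kinesin subunit, was 1.19-fold lower with BW245C at 3 hr (adjusted p = 0.0353) and 1.24-fold lower at 24 hr (adjusted p = 0.0126). Rad50, a DNA repair gene between Il13 and Il5 that houses the locus control region of the type 2 cytokines, changed by log2 -0.21 ± 0.09 at 3 hr (adjusted p = 0.0815) and 0.07 ± 0.09 at 24 hr (adjusted p = 0.581). Irf1, an interferon-induced transcription factor, changed by -0.24 ± 0.15 at 3 hr (adjusted p = 0.231) and was 1.91-fold lower at 24 hr (adjusted p = 8.61e-05), and its difference between the times was called downward, as for Il4 and Il13 (log2 -0.70 ± 0.21, adjusted p = 0.016). Il5, the third cytokine gene of the locus, was above background on 0 of 25 arrays. Its highest signals were 3.49% in a vehicle liver at 24 hr and 2.35% in a BW245C liver at 24 hr, against an untreated range of 0.887 to 1.26%, so no fold is given.

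Il10 was lower with BW245C at 24 hr, and its rise at 3 hr was less firm. At 3 hr the vehicle livers read 5.01, 2.85, 2.60454, 4.45 and 4.47%, all below background, and the BW245C livers 5.09, 6.11, 3.57, 9.63 and 6.97%, of which 4 were above background. The groups overlapped by 1 BW245C liver. At 24 hr the vehicle livers read 9.48, 9.05, 6.85, 11.6 and 5.58%, all above background, and the BW245C livers 4.37, 3.17, 3.04, 5.35 and 4.69%, of which 2 were. These groups did not overlap. Il10 was 2.05-fold lower with BW245C at 24 hr (log2 -1.03 ± 0.24, adjusted p = 0.00308), with -0.99 under the slide block and -0.92 within slide 4, but the call was lost with normexp (log2 -0.16, adjusted p = 0.0861). On the processed signal it was at least 1.23-fold higher at 3 hr, set against the floor of the arrays rather than the unmeasured vehicle level (fitted log2 0.67 ± 0.24, adjusted p = 0.0435). That call was lost under 7 other settings, among them the slide as a block (log2 0.36, adjusted p = 0.499), and without vehicle mouse 2 or 3 or without BW245C mouse 2, 4 or 5, where the adjusted p reached 0.127. Normexp gave log2 0.05 at 3 hr, a change smaller than the bound of 1.23-fold. The difference between the times was log2 -1.70 ± 0.34 (adjusted p = 0.00145), and missed the threshold with the slide block (log2 -1.35, adjusted p = 0.0692) and with normexp (-0.21, adjusted p = 0.12).

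Il33 was lower with BW245C at 3 hr. The vehicle livers read 63.8, 40.4, 38.6, 34.6 and 63.3%, and the BW245C livers 13.6, 33.9, 19.046, 25.3 and 15.9%. All 5 BW245C livers lay below the vehicle livers, and 4 of the 5 lay below the untreated range of 27.4 to 39.9%. Il33 was 2.28-fold lower (log2 -1.19 ± 0.24, adjusted p = 0.00113), with -1.12 under the slide block and -1.20 within slide 3. At 24 hr the vehicle livers read 103.6, 112, 114, 226 and 107%, and the BW245C livers 85.2, 61.8, 86.9, 74.4 and 110.4%, so that 1 BW245C liver lay inside the vehicle range. The change at 24 hr was log2 -0.62 ± 0.24 and did not pass (adjusted p = 0.0631). It did pass with the slide as a fixed block (-0.77, adjusted p = 0.0474) or random block (-0.67, adjusted p = 0.0458), with normexp, with the authors' series matrix values and without BW245C mouse 5. The difference between the times was 0.57 ± 0.34 (adjusted p = 0.21), so a difference between the agonist's effects on Il33 at the 2 times was not shown. Without vehicle mouse 4 the change at 24 hr was -0.41. At 3 hr the sum of 7 general endothelial markers, of which Kdr made up 77.9%, was 3656 to 4069 with BW245C against 2741 to 3471 with vehicle, and 1 of the 7 was called higher. For 9 stellate cell and fibroblast markers, with Dcn at 87.9%, the sum was 8509 to 10808 against 7799 to 10755, and 2 of the 9 were called higher. Among all genes 11.8% were called higher at 3 hr. The part of endothelial, stellate and fibroblast cells in the lower Il33 was not tested.

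Of the receptor gene Il1rl1, only 1 of 3 probes was above background on any array, a probe designed on the transcript of the membrane-bound form. A probe of the same transcript and the probe of the soluble form were below background on all 25 arrays. Il1rl1 read 6.50, 4.38, 3.27, 7.56 and 5.41% in vehicle livers and 6.17, 6.36, 3.80004, 5.87 and 4.75% in BW245C livers at 3 hr, with 3 of 5 above background in each group. The BW245C livers lay inside the wider range of the vehicle livers. At 24 hr it read 4.81 to 9.07% with vehicle and 3.22 to 6.43% with BW245C, again with overlap. The change with BW245C was log2 0.02 ± 0.29 at 3 hr (adjusted p = 0.961), with a negative sign under the slide blocks, quantile normalization and normexp, and -0.53 ± 0.29 at 24 hr (adjusted p = 0.178).

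Gata3 read 10.1, 4.35, 6.43, 7.94 and 8.20% in vehicle livers and 6.74, 8.81, 19.8, 6.25 and 6.68% in BW245C livers at 3 hr. BW245C mouse 3 stood above all other livers of that time, and the rest overlapped. At 24 hr the vehicle livers lay between 17.3 and 21.5% and the BW245C livers between 12.7 and 19.6%. The change was log2 0.28 ± 0.26 at 3 hr (adjusted p = 0.436), turning to -0.01 without BW245C mouse 3 and to -0.0022 with normexp, and -0.29 ± 0.26 at 24 hr (adjusted p = 0.428).

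**Figure D2:**
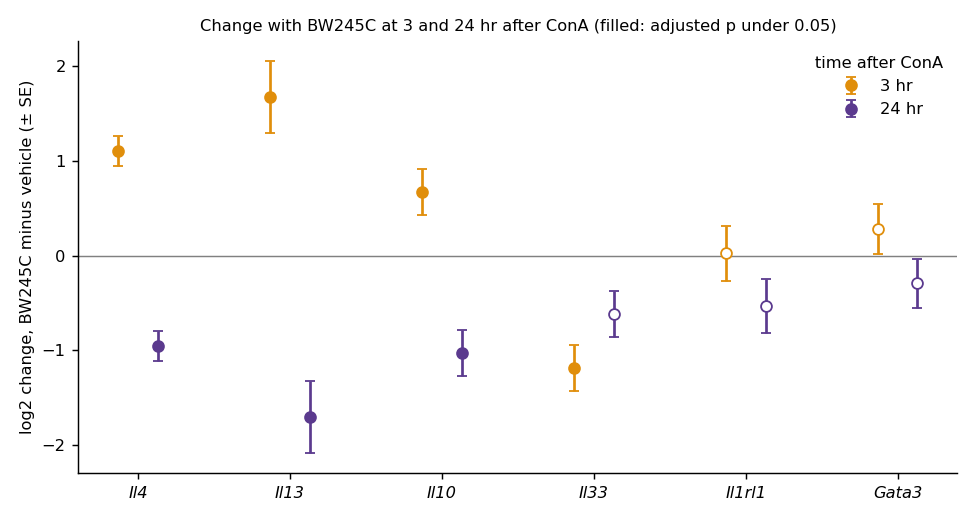
log2 change of the 6 tested members, BW245C minus vehicle, at 3 hr and 24 hr after ConA. Bars are standard errors of the fit and filled points have an adjusted p under 0.05. Il4, Il13 and Il10 lie above 0 at 3 hr and below 0 at 24 hr, and Il33 lies below 0 at both times.

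At 3 hr, 3 of the 6 tested members (Il4, Il13 and Il10) were called higher with BW245C, where 11.8% of all 15104 genes were, and 1 (Il33) lower, where 16.9% were. At 24 hr, 3 (Il4, Il13 and Il10) were called lower, where 8.95% of all genes were, and 0 higher, where 17.6% were. In the limma fit 0 members were higher at 24 hr at an unadjusted p under 0.05 too. Tested directly, the difference between the times was downward for the same 3 members, against 10.8% of all genes, and upward for 0, against 19.3%. Il33, Il1rl1 and Gata3 were not among those called, with unadjusted p of 0.111, 0.185 and 0.133. The turn from higher at 3 hr to lower at 24 hr, with both changes called, was seen in 99 of 15104 genes (0.655%), to which Il4, Il13 and Il10 belong. For Il10 this rests on the call at 3 hr that was lost under 7 other settings. Among all genes Il13 had the 24th largest rise at 3 hr, Il4 the 202nd and Il10 the 924th.

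**Figure D3:**
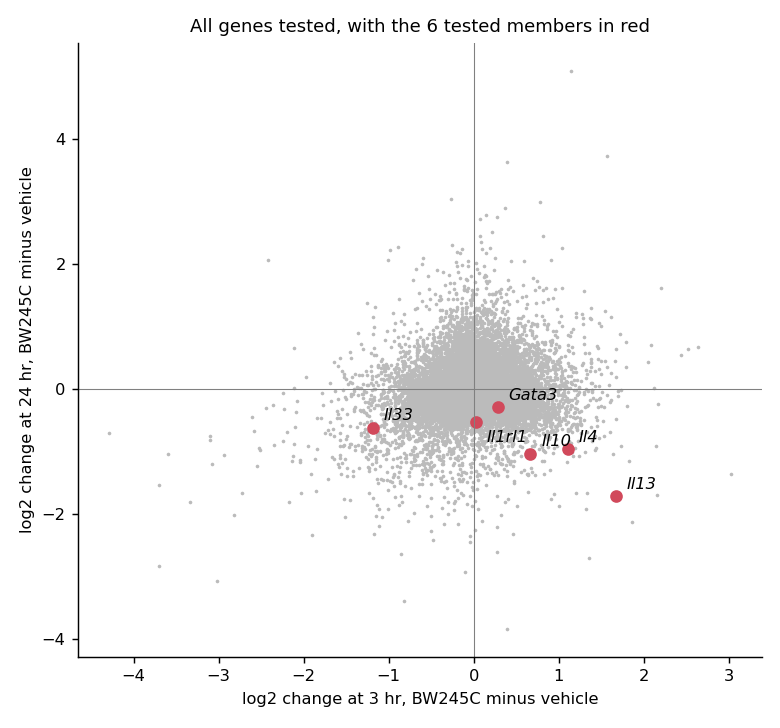
log2 change with BW245C at 3 hr (horizontal) and at 24 hr (vertical) for each of 15104 genes, with the 6 tested members in red. Il4, Il13 and Il10 lie in the lower right, higher at 3 hr and lower at 24 hr, and Il33 in the lower left.

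With ConA and vehicle, 4 of the 6 tested members were called higher at 3 hr (25% of all genes were higher and 37% lower). All 6 were at 24 hr (29.8% higher and 39.1% lower). Il13, Il10 and Il1rl1 were above background in 0 of 5 untreated livers. They passed the filter only through livers given ConA, so the filter favoured rises and these counts are no independent evidence. Il4 rose 8.66-fold at 3 hr (log2 3.11 ± 0.15, adjusted p = 5.21e-14), with 3.00 and 2.98 within slides 1 and 2 and 1.36 with normexp. Il13 was below background in every untreated liver, at 0.711 to 0.997%, and rose at least 2.99-fold at 3 hr (adjusted p = 6.39e-09) and at least 2.40-fold at 24 hr (adjusted p = 2.01e-08), bounds that rest on the array floor. Normexp gave log2 0.93 and 0.61, both called but under these bounds, which hold for the processed signal only. Il1rl1, at 0.813 to 2.66% and also below background in untreated liver, rose at least 1.34-fold at 3 hr (adjusted p = 5.50e-06) and at least 1.61-fold at 24 hr (adjusted p = 6.62e-07). Normexp gave log2 0.40 at 3 hr and ended the call at 24 hr (log2 0.13, adjusted p = 0.137), both under the bounds. The slide block gave 1.42 in place of 2.14 at 24 hr. Il10 was below background in both groups at 3 hr, which leaves no fold, although its signals of 1.85 to 2.58% in untreated liver did not overlap those with vehicle (fitted log2 0.83 ± 0.24, adjusted p = 0.00494, and adjusted p = 0.223 with the slide block). Il33 and Gata3 were not called at 3 hr (log2 0.41 ± 0.24, adjusted p = 0.143, and 0.15 ± 0.26, adjusted p = 0.625). Gata3 passed only with normexp (log2 0.24, adjusted p = 0.0287).

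At 24 hr Il33 was 3.61-fold above untreated liver (log2 1.85 ± 0.24, adjusted p = 4.30e-07) and Gata3 3.08-fold (log2 1.62 ± 0.26, adjusted p = 8.35e-06), while Il4 was 3.104-fold above it. Il10 was above background in all 5 vehicle livers and in 0 untreated ones, at least 2.12-fold higher. With normexp the changes were log2 0.49 for Gata3, 0.39 for Il4 and 0.20 for Il10, all still called, the last under its bound. The slide block gave Il10 1.37 in place of 1.97. No slide held both untreated livers and vehicle livers of 24 hr. In this comparison 10 of 11 T cell markers (median log2 2.65), 6 of 6 NK and NKT markers (2.31) and 5 of 6 neutrophil markers (6.94) were higher, while 10 of 10 hepatocyte markers (-1.20) and 8 of 9 sinusoidal endothelial markers (-1.28) were lower. At 3 hr 9 of 11 T cell markers (0.92) and 4 of 6 NK and NKT markers (0.45) were higher. Their part in the rises of the members was not tested.

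Between 3 hr and 24 hr the vehicle livers lost Il4 (2.79-fold lower, adjusted p = 1.21e-08) and gained Il33 (2.71-fold, adjusted p = 1.46e-05) and Gata3 (2.77-fold, adjusted p = 2.90e-05). Il10, below background in the vehicle livers of 3 hr, was at least 1.70-fold higher (adjusted p = 0.000247). Thus 3 of the 6 members were called higher, against 33.2% of all genes, and 1 lower, against 35.3%. Il13 changed by log2 -0.32 ± 0.38 (adjusted p = 0.476), and passed with normexp (-0.33, adjusted p = 0.0306). Il1rl1 changed by 0.27 ± 0.29 (adjusted p = 0.425), and passed upward with the series matrix values (0.72, adjusted p = 0.0366) and downward with normexp (-0.27, adjusted p = 0.00333). The Il10 rise was not seen with normexp (log2 -0.09), and the Gata3 rise was smaller (0.25).

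In the BW245C livers over the same interval, Il4 fell 11.6-fold (log2 -3.54 ± 0.15, adjusted p = 2.26e-14) and Il13 12.99-fold (log2 -3.70 ± 0.38, adjusted p = 1.45e-08). Il33 rose 4.03-fold (adjusted p = 1.62e-07) and Gata3 1.86-fold (adjusted p = 0.00437), the latter not with the slide block (adjusted p = 0.0686) or with normexp (log2 0.17, adjusted p = 0.113). Normexp gave log2 -2.05 for Il4, -1.57 for Il13 and 1.34 for Il33, all called. Il1rl1 changed by -0.29 ± 0.29 (adjusted p = 0.373) and passed with normexp (-0.27, adjusted p = 0.0034). Il10 was lower by log2 -0.56 ± 0.24 (adjusted p = 0.0433), a call that was lost under 8 other settings and without any 1 of 6 mice. With it, 3 members were called lower, against 34.3% of all genes, and 2 higher, against 35.8%. These changes over time share their groups with the agonist's effects and are no independent evidence of them.

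Ordered by level, Il4 ran from BW245C at 3 hr over vehicle at 3 hr, vehicle at 24 hr and BW245C at 24 hr to untreated, with no overlap between any neighbours. Il13 had the same order, but vehicle at 3 hr overlapped vehicle at 24 hr, and the latter overlapped BW245C at 24 hr. Il33 and Gata3 were highest with vehicle at 24 hr, followed by BW245C at 24 hr, and each of their neighbouring groups overlapped. The genes whose levels followed a member most closely over the 25 arrays are given as a description, since all points share the group differences. For Il4 they were Rbbp8 (Pearson r 0.960), Irf1 (0.959) and Trim21 (0.956), and for Il13 Tnfsf14 (0.949), Mpv17 (0.944) and Fosl2 (0.937). For Il10 they were Thbd (0.901), Ddn (0.890) and Fpr-rs6 (0.887), and for Il33 Slc35f5 (0.941), Tmem184b (0.941) and Ankfy1 (0.938). Il1rl1 was followed by Adamts4 (0.900), Il2ra (0.897) and Slc2a6 (0.883), and Gata3 by Ncaph (0.929), Psrc1 (0.889) and Ckap2 (0.879). The Il10 probe was above background on 11 of the 25 arrays and the Il1rl1 probe on 14, so the rest of their points were background signal.

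The levels of genes for type 2 receptors and their signalling, and of genes that type 2 cytokines induce, were read next. Whether IL-4 or IL-13 signalled more with BW245C was not tested. Of 16 genes for type 2 receptors and their signalling, 0 were called higher and 7 lower with BW245C at 3 hr, against 11.8% and 16.9% of all genes. The median log2 was -0.37, against -0.04 over all genes. At an unadjusted p under 0.05 in limma 0 were higher and 9 lower. A slide block left 3 of the 7. Over all genes 916 were called lower with that block, in place of 2547, and 854 higher, in place of 1776. Stat6, the transcription factor activated by the IL-4 receptor, was 1.58-fold lower (adjusted p = 2.49e-05), Jak3, the kinase bound to the shared gamma chain, 2.01-fold lower (adjusted p = 1.12e-05), and Il13ra1, a receptor chain for IL-13, 1.43-fold lower (adjusted p = 0.0018). At 24 hr 1 of the 16 was higher and 1 lower, against 17.6% and 8.95% of all genes (median -0.15, against 0.01 over all genes). Socs1, a feedback inhibitor of JAK kinases, was 2.99-fold lower (adjusted p = 2.96e-05) and Stat5b 1.32-fold higher (adjusted p = 0.00229). For the difference between the times, 3 were higher and 1 lower, against 19.3% and 10.8% of all genes. Jak3 differed by log2 1.23 (adjusted p = 0.000122), and Stat6 and Stat5a by 0.56 each (adjusted p = 0.00357 and 0.0275), both lost with the slide block (adjusted p = 0.158 and 0.182).

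Of 15 tested genes that type 2 cytokines are known to induce, 0 were called higher and 4 lower with BW245C at 3 hr (median log2 -0.43). The shares of all genes were 11.8% and 16.9%. Unadjusted in limma 0 were higher and 6 lower. A slide block left 2 of the 4, where over all genes 916 were called lower in place of 2547. Ccl11, an attractant of eosinophils, was 2.93-fold lower (adjusted p = 0.000189), Ccl24, another eosinophil attractant, 2.70-fold (adjusted p = 0.00337, and 0.136 with the slide block), and Pdcd1lg2, a ligand of the checkpoint receptor PD-1, 2.01-fold (adjusted p = 0.00078). At 24 hr 1 was higher and 2 lower, against 17.6% and 8.95% of all genes (median -0.32). Mrc1, the macrophage mannose receptor, was 2.02-fold higher (adjusted p = 0.00242), whereas Egr2 was 2.096-fold (adjusted p = 0.0179) and Pdcd1lg2 1.81-fold lower (adjusted p = 0.00263). Between the times the effect differed upward for 3 (Ccl11 log2 0.98, Ccl24 1.53 and Mrc1 1.04, adjusted p = 0.0483, 0.0204 and 0.0214), and for 0 of these with the slide block. It differed upward for 19.3% of all genes (2908 genes), and for 505 genes with that block.

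Around IL-33, 12 of 15 listed genes were tested, and Tslp, Il25 and Il9 were not. With BW245C at 3 hr 0 were higher and 2 lower, unadjusted in limma likewise 0 and 2 (median log2 0.02). The shares of all genes were 11.8% and 16.9%, and 2 of 12 lower lay near the latter. Myd88, the adaptor of the ST2 receptor, was 1.36-fold lower (adjusted p = 0.0134, and 0.209 with the slide block). Areg, the growth factor amphiregulin, had a fitted log2 change of -1.22 (adjusted p = 0.0326, and 0.0818 with the slide block), was -0.22 and not called with normexp, and was above background on 0 BW245C and 1 vehicle array. At 24 hr 2 were higher and 3 lower, against 17.6% and 8.95% of all genes (median -0.09). Il1rap, the second chain of the IL-33 receptor, was 2.12-fold higher (adjusted p = 3.56e-05), and Myd88 was 1.47-fold lower (adjusted p = 0.00236). Csf2, which encodes GM-CSF, had a fitted log2 change of -1.46 (adjusted p = 1.49e-05) but was above background on 2 vehicle arrays and 0 BW245C arrays, so no fold is given. With normexp it was -0.079 and not called. Between the times the effect differed upward for 19.3% of all genes and downward for 10.8%. Here it differed upward for Il1rap (log2 1.06, adjusted p = 0.00157, and 0.0638 with the slide block) and downward for Csf2 (-1.33, adjusted p = 0.00142) and Il2 (-1.60, adjusted p = 0.0112). With normexp neither of the latter was called, at 0.02 for Csf2, whose sign turned, and -0.24 for Il2.

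Around IL-10, 19 of 20 listed genes were tested. With BW245C at 3 hr 2 were higher and 7 lower, against 11.8% and 16.9% of all genes (median log2 -0.15). A slide block left 1 of the 9, where over all genes 854 were called higher in place of 1776, and 916 lower in place of 2547. Il22, a cytokine of the IL-10 family, was 2.00-fold higher (log2 1.00 ± 0.23, adjusted p = 0.00334, and 0.104 with the slide block). Socs3, the feedback inhibitor of STAT3 signalling, was 2.20-fold lower (adjusted p = 0.00132), and Stat3 1.66-fold lower (adjusted p = 0.00224, and 0.152 with the slide block). At 24 hr 0 were higher and 9 lower, against 17.6% and 8.95% of all genes, and unadjusted in limma 0 and 11 (median -0.44). Bcl3 was 1.85-fold lower (adjusted p = 1.20e-05), Tnfaip3, the NF-kappaB inhibitor A20, 2.33-fold lower (adjusted p = 8.16e-05) and Socs3 2.71-fold lower (adjusted p = 0.000133). Between the times the effect differed downward for 5 and upward for 0, against 10.8% and 19.3% of all genes. Unadjusted in limma these were 8 and 2 (median -0.55). Bcl3 differed by log2 -0.55 (adjusted p = 0.0138). Lag3, a checkpoint receptor, differed by -1.52 (adjusted p = 0.00705, and 0.0701 with the slide block), and Foxp3, the factor of regulatory T cells, by -1.07 (adjusted p = 0.0304), a value that was log2 0.02 with the slide block (adjusted p = 0.981). With normexp Lag3 was -0.15 and Foxp3 -0.17, neither called.

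Among 17 lineage transcription factors, 3 were higher and 2 lower with BW245C at 3 hr, against 11.8% and 16.9% of all genes (median log2 -0.16). Zbtb16, the gene of PLZF, a factor of NKT cells and innate lymphoid precursors, was 2.72-fold higher (adjusted p = 0.000672). It was above background on 25 of 25 arrays, and the cells that carried it were not identified. Rora, a factor of type 2 innate lymphoid cells that many tissues also express, was 2.03-fold higher (adjusted p = 6.14e-06). Nfatc1, a calcium-regulated factor that is activated in stimulated T cells, was 3.01-fold lower (adjusted p = 1.01e-06). At 24 hr 1 was higher and 2 lower, against 17.6% and 8.95% of all genes (median -0.19). Zbtb16 was 1.93-fold lower (adjusted p = 0.0144), Junb, an AP-1 subunit, 2.64-fold lower (adjusted p = 0.001), and Maf 1.36-fold higher (adjusted p = 0.0147). The effects at both times differed for Zbtb16 (log2 -2.39, adjusted p = 0.000292), Rora (-1.11, adjusted p = 0.000217) and Nfatc1 (1.96, adjusted p = 1.39e-05), all 3 also with the slide block, where Zbtb16 was -3.20. They differed upward for 19.3% of all genes and downward for 10.8%. Tbx21, the type 1 factor T-bet, was not called at either time (log2 -0.09 ± 0.19 and -0.38 ± 0.19), a gene named after its value was seen. Ifng, the type 1 cytokine gene, was not called at 3 hr (log2 -0.32 ± 0.25, adjusted p = 0.336). At 24 hr it was 2.77-fold lower with BW245C (adjusted p = 0.000166), with no overlap. Its difference between the times was called downward (log2 -1.14 ± 0.35, adjusted p = 0.0185), so the fall at 24 hr was not confined to the members.

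**Figure D4:**
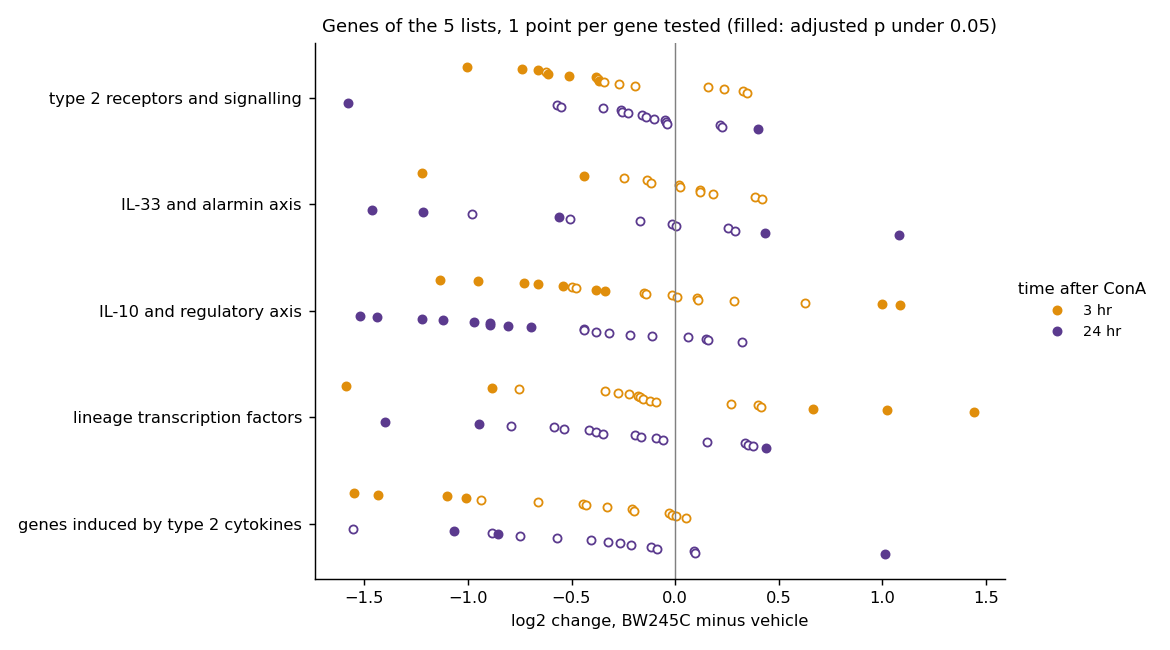
log2 change with BW245C at 3 hr and 24 hr for each tested gene of the 5 lists, sorted within list and time. Filled points have an adjusted p under 0.05. At 3 hr 0 of 16 genes for type 2 receptors and signalling and 0 of 15 induced genes were called higher, and 7 and 4 were called lower. The shares of all genes were 11.8% higher and 16.9% lower.

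ConA with vehicle raised most of these genes at 3 hr: 12 of 16 for type 2 receptors and signalling, 10 of 15 induced genes, 7 of 12 around IL-33, 12 of 19 around IL-10 and 11 of 17 transcription factors were higher, and 2, 1, 3, 1 and 5 lower. At 24 hr 8, 11, 6, 17 and 9 were higher and 4, 2, 3, 2 and 5 lower. The shares of all genes were 25% higher and 37% lower at 3 hr, and 29.8% and 39.1% at 24 hr. Listed genes below background in untreated liver, such as Ccl11, Areg and Gfi1, passed the filter only through livers given ConA. The filter thus favoured rises, and these counts are no independent evidence. Socs1 rose 271-fold at 3 hr (adjusted p = 2.64e-18) and was 39.1-fold above untreated liver at 24 hr (adjusted p = 6.02e-15). Ccl11, below background in untreated liver, rose at least 125-fold at 3 hr (adjusted p = 5.57e-18) on the processed signal. Chil3, a chitinase-like protein of alternatively activated macrophages and neutrophils, was 69.8-fold higher at 24 hr (adjusted p = 3.60e-13). Areg was at least 8.71-fold higher at 24 hr (adjusted p = 2.41e-10), and Gfi1 at least 12.03-fold (adjusted p = 1.01e-12 at 24 hr). These sizes and bounds depend on the background correction: normexp gave log2 7.12 and 4.54 for Socs1 at 3 hr and 24 hr, 4.71 for Ccl11 at 3 hr, 5.03 for Chil3, 1.53 for Areg and 1.62 for Gfi1 at 24 hr, each still called and, for the last 2 and Ccl11, under the bound.

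Marker genes of the cells that can make or answer these cytokines were read beside these results, as sums of percent signal per liver and as counts of genes called. With BW245C, 11.8% of all genes were called higher and 16.9% lower at 3 hr, and 17.6% and 8.95% at 24 hr. With BW245C at 3 hr, 1 of 11 T cell markers was higher and 1 lower, and the sum, of which Cd4 made up 82.8%, was 7583 to 11309 against 4566 to 9475 with vehicle. Of 6 tested NK and NKT markers 1 was higher and 2 lower (828 to 1086 against 928 to 1248), of 6 tested markers of type 2 innate lymphoid cells 1 was higher and 1 lower (529 to 932 against 646 to 1112, with Ly6a at 84.3% of the sum), and of 7 tested basophil and mast cell markers 0 were higher and 1 lower (350 to 606 against 377 to 704). All these ranges overlapped. Fcer1a and Ms4a2, which define basophils and mast cells, and Epx, which defines eosinophils, were above background on 0 of 25 arrays. The summed eosinophil markers, of which Ear2 made up 72.3%, were 139 to 328 with BW245C at 3 hr against 239 to 510 with vehicle, again with overlap.

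At 24 hr, 2 of 7 basophil and mast cell markers were lower with BW245C: Hdc, the histamine-forming enzyme, which neutrophils also express, was 2.39-fold lower (adjusted p = 0.000599) and Prss34 1.46-fold (adjusted p = 0.0166). The sum, of which Hdc made up 81.2%, was 286 to 613 against 683 to 1120 with vehicle, with no overlap. Neutrophil markers also separated, with 5 of 6 lower and sums of 13106 to 20784 against 25927 to 39003. Csf3r made up 57.3% of that sum and was the marker not called (log2 -0.17). The T cell sums did not separate (3563 to 7208 against 4327 to 7487), and 0 of 11 T cell markers were called (median log2 -0.13). Cd4, most of that sum, changed by log2 -0.08 with ConA and vehicle at 24 hr, where 10 of 11 T cell markers rose. The sum thus mostly reports Cd4. NK and NKT markers did not separate (1246 to 2350 against 1973 to 2434, 1 of 6 lower). Markers of type 2 innate lymphoid cells did not either (2709 to 4056 against 2785 to 5523, 1 of 6 lower). Other lists moved upward with BW245C at 24 hr: 6 of 10 hepatocyte markers (median log2 0.44), 5 of 9 stellate cell and fibroblast markers (0.68) and 3 of 9 sinusoidal endothelial markers (0.43) were higher. The part of these cells in the lower Il4, Il13 and Il10 at 24 hr was not tested.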

How the data were processed

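The 25 arrays are 1-colour Agilent scanner files. Per the file headers the signal intensities were extracted with Agilent Feature Extraction 10.7.3.1, and the submitters' processing notes name version 9.1. The deposited processed signal intensity, which the authors' software had background-corrected, was taken as log2 minus the log2 of the array's 75th percentile over 59305 non-control spots. Outlier spots were dropped and spots of a probe averaged. Accessions were matched to RefSeq's table, which named 26582 of 55681 probes. Probes above background (a flag the deposited files give as another, yes-or-no value) on at least 5 arrays were kept, and the brightest kept probe stood for a gene. One limma 3.58.1 fit (R 4.3.3) with a mean per group gave 7 contrasts over 15104 genes, with empirical Bayes errors and Benjamini-Hochberg adjustment, and genes were called at an adjusted p under 0.05. The script was tested on simulated data. A bound sets the bright group's mean against the higher of each array's lowest well-measured signal and the dim probe's own. Bounds hold for the processed signal only, and normexp gave values under several of them. The number of arrays limits the precision.

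The labels number the mice separately in each group, and the numbers do not pair the groups. The members and gene lists were chosen with earlier results of these data known. All members are named, with the neighbours of Il4, Il13 and Il5 and with Tbx21 and Ifng. From each list the 3 called genes of smallest p are named for the agonist's comparisons, with a choice among them for ConA and counts only over time, and 3 genes of highest Pearson r are named for each member. Alternatives were normexp with an offset of 50 on the median signals, quantile scaling, centring on the median of probes measured on every array, the authors' series matrix values, other filters and probe rules, an intensity trend, only the groups compared, slide and replicate blocks, and leaving out each mouse. Figures used matplotlib.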

Additional observations from a re-analysis of the deposited data

Results flagged for a closer look

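For 3 members the agonist's effect differed between the times in the fit's own test of that difference. The effect at 24 hr minus that at 3 hr was log2 -2.06 for Il4, -3.38 for Il13 and -1.70 for Il10. With the slide as a block Il4 and Il13 stayed past the threshold and Il10 did not.

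Among 30 combinations of a tested member and a group, 1 held a liver far from the other 4. Il33 in vehicle mouse 4 at 24 hr had a log2 level of 1.18 (226% of the array's 75th percentile), and the next liver read 114%. Chance alone flags about 1 in 20 groups. Il4 (19.7%) and Il10 (11.6%) were also highest of the vehicle livers of 24 hr in this mouse. Without it, Il33 remained uncalled between BW245C and vehicle at 24 hr.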

How the results depend on the processing

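Calls of Il4 and Il13 for the agonist's effect at either time, and for the difference between the times, held under every alternative run, as did Il33 at 3 hr. Among the counts of members called, 1 moved by over 1.5 times: 3 in place of 5 for BW245C at 24 against 3 hr with the slide as a fixed block. Leaving out 1 mouse in turn gave 3 to 4 members called at 3 hr, 3 to 4 at 24 hr, 3 for the difference between the times, and 4 to 5 for BW245C at 24 against 3 hr. With the replicate number as a block, the counts for these comparisons were 4, 3, 3 and 5, and no member's call changed. That block pairs nothing known, since deviations of same-numbered mice had a median correlation of -0.0135 and 4 of 25 arrays correlated best with their own number.

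Signs turned as follows, and the cause was not tested. Il1rl1 with BW245C at 3 hr was log2 -0.0021 with normexp, -0.18 with quantile scaling, -0.23 and -0.064 with the fixed and random slide block, and -0.14 to 0.16 without 1 mouse. Gata3 there was -0.0022 with normexp and -0.015 to 0.41 without 1 mouse. For vehicle at 24 against 3 hr, Il13 was 0.13 with the series matrix values and 0.076 with the slide block, Il10 was -0.085 with normexp, and Il1rl1 was -0.27 with normexp, there past the threshold (adjusted p = 0.00333).

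Counts over all genes moved with the slide term and with the groups fitted. At 3 hr 1776 genes were higher and 2547 lower with BW245C, against 854 and 916 with the fixed block, 1041 and 1609 with the random block and 751 and 1439 with only these groups fitted. For the difference between the times, 2908 and 1630 became 505 and 423, or 1457 and 650 with the random block. The series matrix values are scaled otherwise and moved the median of all genes by 0.11 at 3 hr and -0.11 at 24 hr with BW245C, by -0.23 for the difference between the times, -0.11 and 0.34 for ConA at 3 and 24 hr, and 0.45 and 0.22 for 24 against 3 hr with vehicle and BW245C. The share of called genes that were higher became 62.1 in place of 41.1%, 42.8 in place of 66.3%, 31.98 in place of 64.1%, 65.7 in place of 43.2% (ConA at 24 hr), 74.1 in place of 48.5% and 66.5 in place of 51.1%. Normexp moved the vehicle change over time by -0.11, and quantile scaling moved both changes over time by 0.10. Signals near background limit Il5, Il10 and Il1rl1, and Il13 in untreated liver. They also limit Il13 with BW245C at 24 hr, where 3 of 5 livers were above background.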
